A study of Homo sapiens with 39 samples.

Results

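The guides described here are the 100 that were most abundant at day 14 in vemurafenib in a whole-genome knockout screen of A375 cells lacking MED12. They were chosen by their mean over the 3 vemurafenib libraries of day 14, after read counts were scaled to counts per 1000000 reads of each library (CPM), and are the highest 100 of 77441 guides. They name 96 genes and 3 control guides without a named target. The limit fell between 349 CPM at rank 100 and 346 CPM for the next guide. Because the day-14 vemurafenib levels chose these guides, those levels are given as a description, with no test.

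A375 cells come from a melanoma and carry an activated form of the kinase BRAF. The whole-genome knockout library was read at day 0, at day 8 and at day 14, in vemurafenib at 2 µM or in DMSO, with 3 libraries in each of the 5 groups. All 5 groups carried the MED12 knockout, so no cells with intact MED12 are compared here. A smaller epigenetic library of 12214 guides was read in MED12 knockout cells on the same plan, and in MED23 knockout cells at day 14 in vemurafenib at 1 µM, at day 14 in DMSO and at day 0. The labels do not say whether replicates were separate cultures, nor whether a replicate number follows 1 culture through time, so p-values measure the spread between these libraries, which may be technical.

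In a pooled knockout screen each infected cell carries 1 integrated guide as a barcode, and the share of reads on a guide follows the share of cells that descend from cells carrying it. A guide can gain share because losing its target helps cells grow, or because a few cells that carried it expanded for any other reason. Guides to the same gene share only the target, so a gain seen with several guides and in several libraries is a different observation from a gain of 1 guide in 1 library. Vemurafenib blocks mutant BRAF, and MED12 is a subunit of the kinase module of Mediator, the complex that links transcription factors to RNA polymerase II.

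The 100 guides took 0.228% ± 0.00427 of reads at day 0 (SD, n = 3 libraries, as for all shares here). At day 8 they took 1.12% ± 0.0488 in vemurafenib, against 0.703% ± 0.0136 in DMSO. At day 14 they took 5.25% ± 0.649 in vemurafenib, against 2.18% ± 0.229 in DMSO. They led the vemurafenib libraries without filling them, and the largest share of any single guide was 0.404%. Any choice of leading guides raises such a share in the libraries that chose them, and each library's own 100 leading guides took 9.20%, 4.99% and 0.680% at day 14 in vemurafenib, day 14 in DMSO and day 0 on average. The median guide meanwhile stood at 2.20 CPM at day 14 in vemurafenib, 3.93 CPM at day 14 in DMSO and 10.5 CPM at day 0. Guides without a read numbered 7601 on average at day 14 in vemurafenib, against 6152 at day 14 in DMSO, and 189 were without a read at day 0. Libraries held 47766947 to 87591804 reads, so counting error is small beside the spread between libraries. A count of 0 allows up to 0.0628 CPM in the shallowest library, a limit that covers counting error only, since PCR reads are not independent molecules.

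Most of the leading guides led in 1 library. A guide was called a single-library jackpot where its highest CPM was at least 5 times the median of its 3 values, recurrent where the highest was at most 5 times the lowest, and mixed otherwise. By this measure 60 guides were jackpots, 32 were mixed and 8 were recurrent. Jackpots lay highest in library 1 for 20 guides, in library 2 for 16 and in library 3 for 24. The library that led held a median of 98.98% of a jackpot's summed CPM (83.8% to 99.96%). Among the 774 highest guides of each library, the top 1%, 56 of the 60 jackpots appeared in 1 library and 4 in 2. All 32 mixed guides appeared in 2 and all 8 recurrent guides in 3. These shares and counts come from the values that chose the guides and defined the classes. They follow largely from the definitions and add no separate evidence for the classes.

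The guide with the highest mean was such a jackpot. CHCHD10_2, against a protein of the mitochondrial intermembrane space, had 4038, 1.51 and 172 CPM in vemurafenib libraries 1, 2 and 3 at day 14, and 1528, 1.22 and 66.6 CPM in the DMSO libraries of the same numbers. It took 0.404% of all reads in vemurafenib library 1 and lay below its own day-0 level in library 2. At day 0 its 3 values were 39.2, 28.7 and 36.6 CPM, much closer together than at day 14.

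RRN3_2, against an initiation factor of RNA polymerase I, had 0.67, 151 and 2536 CPM at day 14 in vemurafenib, against 2.03, 32.8 and 408 CPM in DMSO. RNF169_3, against a ubiquitin ligase of the double-strand break response, had 2515, 5.24 and 2.84 CPM in vemurafenib, against 559, 7.39 and 3.17 CPM in DMSO. ATP5A1_4, against the alpha subunit of mitochondrial ATP synthase (now ATP5F1A), had 3.33, 0.352 and 2492 CPM in vemurafenib, against 6.09, 3.77 and 761 CPM in DMSO. In each of these cases 1 library stood far above the other 2, and it carried the same number in vemurafenib and in DMSO. MFRP_4, against a frizzled-related membrane protein of the retinal pigment epithelium, had 2383, 103 and 0.361 CPM in vemurafenib, against 752, 20.7 and 0.851 CPM in DMSO. LRWD1_4, against a protein that binds the origin recognition complex, had 2314, 1.38 and 4.25 CPM in vemurafenib, against 800, 7.85 and 2.20 CPM in DMSO. Among the 10 jackpots with the largest share of 1 library, the shares ran from 0.404% for CHCHD10_2 to 0.196% for IMMP1L_1, and the list also held NF2_1, ABCD4_3 and DUOX1_2.

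In the libraries they did not lead, jackpots mostly lost ground, as the median guide did. Of the 120 pairs of a jackpot with another library, 96 lay below the day-0 value of the same number at day 14 in vemurafenib and 89 at day 14 in DMSO. For 39 of the 60 jackpots both other vemurafenib libraries lay below day 0, and for 21 at least 1 lay above. The median over those 120 pairs was 5.31 CPM at day 14 in vemurafenib, 9.52 CPM at day 14 in DMSO and 18.4 CPM at day 0. None of these values was 0, and the jackpots' median in the libraries they did not lead thus still exceeded the median guide of the vemurafenib libraries. The median guide itself fell from 10.5 CPM at day 0 to 2.20 CPM at day 14 in vemurafenib and 3.93 CPM in DMSO. The share of all guides below day 0 was not counted, so these losses are not shown to be particular to jackpots.

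The mixed guides were mostly high in 2 libraries and low in the third. In 30 of the 32 the middle value was at least 5 times the lowest. Their median highest, middle and lowest values at day 14 in vemurafenib were 876, 463 and 3.91 CPM. The low library had number 1 for 11 guides, number 2 for 9 and number 3 for 12, and it was also the lowest at day 14 in DMSO, at day 8 in vemurafenib and at day 8 in DMSO for 32 of 32.

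ETFBKMT_4, against a mitochondrial lysine methyltransferase, was the mixed guide with the highest mean, with 78.5, 1303 and 1680 CPM at day 14 in vemurafenib, against 71.3, 362 and 509 CPM in DMSO. The control guide NO_CURRENT_449 had 1364, 1252 and 26.4 CPM in vemurafenib, against 486, 435 and 40.5 CPM in DMSO. A guide without a target thus showed the 2-library pattern at the level of the leading targeted guides. Further examples, chosen after their values were seen, were MAP2K7_1, against a kinase that activates JNK, with 6.20, 1835 and 397 CPM in vemurafenib and 4.49, 405 and 114 CPM in DMSO, and THOC2_3, against a subunit of an mRNA export complex. THOC2_3 had 7.01, 745 and 937 CPM in vemurafenib, against 11.3, 152 and 249 CPM in DMSO. MAP2K7_1 was the most abundant guide of vemurafenib library 2.

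CPZ_1 was 1 of 2 guides among the 100 highest of all 3 vemurafenib libraries. Another 10 guides were among the 100 highest of 2 libraries and 274 of 1. The libraries of day 14 in vemurafenib shared 4 to 7 of their 100 leading guides in pairs, and those of day 14 in DMSO shared 4 to 5, while those of day 0 shared 42 to 47. Unrelated sets of 100 among 77441 guides would seldom share any, so the overlaps at day 14 were small but above that base. In the whole library 11 guides were in the top 1% of all 3 vemurafenib libraries, 171 in 2 and 1947 in 1.

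The recurrent guides described here were CPZ_1, PDGFRL_4, HTRA4_2, RWDD4_4, MAP3K10_2, NO_CURRENT_172 and FOXO1_4. CPZ_1, against a secreted carboxypeptidase, had 1587, 655 and 1954 CPM at day 14 in vemurafenib, against 1096, 611 and 1917 CPM in DMSO, and 31.9, 30.2 and 41.3 CPM at day 0. Its vemurafenib and DMSO values overlapped, and both lay far above day 0 in every library. HTRA4_2, against a serine protease, had 458, 285 and 523 CPM in vemurafenib, against 297, 254 and 405 CPM in DMSO and 14.2, 16.5 and 13.5 CPM at day 0. PDGFRL_4, against a protein related to the receptors of platelet-derived growth factor, had 518, 307 and 581 CPM in vemurafenib, against 329, 212 and 445 CPM in DMSO and 25.0, 25.5 and 17.5 CPM at day 0. For both guides too the vemurafenib and DMSO ranges overlapped, while no day-14 value came near day 0. Within each library number, however, the vemurafenib value was above the DMSO value for CPZ_1, HTRA4_2 and PDGFRL_4.

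RWDD4_4 started low, at 6.28, 6.92 and 8.52 CPM at day 0, and reached 204, 307 and 655 CPM at day 14 in vemurafenib and 77.0, 150 and 349 CPM in DMSO. FOXO1_4, against a transcription factor that AKT keeps out of the nucleus, had 451, 209 and 394 CPM in vemurafenib, against 389, 139 and 370 CPM in DMSO and 43.6, 35.8 and 38.2 CPM at day 0. MAP3K10_2, against a kinase upstream of JNK, had 281, 420 and 446 CPM in vemurafenib, against 89.6, 143 and 123 CPM in DMSO and 22.6, 23.8 and 16.0 CPM at day 0. Its 3 vemurafenib values all lay above its 3 DMSO values, unlike those of CPZ_1, HTRA4_2, PDGFRL_4, RWDD4_4 and FOXO1_4. Compared within each number, vemurafenib was above DMSO for all of these guides, which choosing them in vemurafenib favours.

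A control guide was also recurrent. NO_CURRENT_172 had 572, 203 and 318 CPM at day 14 in vemurafenib, against 200, 173 and 73.6 CPM in DMSO and 48.1, 39.9 and 29.8 CPM at day 0. Its lowest vemurafenib value lay just above its highest DMSO value. Values above day 0 in all 3 libraries were therefore also seen for a guide that names no gene.

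For the 6 targeted genes whose recurrent guide is described here, that guide stood alone. Their other 18 guides had a median of 14.8 CPM over the mean day-14 vemurafenib values and a highest mean of 37.0 CPM, at rank 5932, and 15 of the 18 lay below their own day-0 mean. Over all guides the median of such means also fell, from 10.6 CPM at day 0 to 4.20 CPM at day 14 in vemurafenib. The other guides of CPZ averaged 19.7, 13.8 and 35.0 CPM in vemurafenib, against 1399 CPM for CPZ_1. The other guides of HTRA4 averaged 15.7, 2.49 and 3.95 CPM, against 422 CPM for HTRA4_2.

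No gene described here had more than 1 of the 100 guides. RBM15 and SETDB1, named after their values were seen, each had 5 of 12 in the top 1% when each of their 4 guides was counted in each vemurafenib library, and had no guide among the 100. All 4 guides to RBM15, which encodes an RNA-binding protein that guides the m6A methyltransferase, ranked in the top 1% by mean. RBM15 summed to 682, 1350 and 919 CPM in vemurafenib, against 410, 999 and 670 CPM in DMSO and 66.7, 117 and 88.3 CPM at day 0. SETDB1 encodes a histone H3 lysine 9 methyltransferase, and its guides summed to 389, 661 and 482 CPM in vemurafenib, against 117, 130 and 188 CPM in DMSO. With the limit moved from 100 to 200 guides, RBM15 had 2.

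NF2_1 lay above its day-0 level in all 3 vemurafenib libraries and was led by 1 of them. NF2 encodes merlin, a tumour suppressor upstream of the Hippo kinases, and is a known gene of resistance to BRAF inhibitors. NF2_1 had 375.1, 89.6 and 2398 CPM at day 14 in vemurafenib, against 218, 57.6 and 455 CPM in DMSO and 41.8, 47.9 and 51.1 CPM at day 0. NF2_2 had 139, 498 and 7.78 CPM in vemurafenib, against 74.3, 200.1 and 26.7 CPM in DMSO, so a different library led. NF2_3 averaged 23.6 ± 19.4 CPM and NF2_4 18.4 ± 15.2 CPM in vemurafenib. Summed over its 4 guides, NF2 had 570, 613 and 2451 CPM in vemurafenib, against 324, 282 and 498 CPM in DMSO. The groups did not overlap, and library 3 held most of the vemurafenib sum.

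Leading in a library ran with the library number. For all 60 jackpots the highest library had the same number at day 14 in vemurafenib, at day 14 in DMSO, at day 8 in vemurafenib and at day 8 in DMSO, and for 51 of 60 at day 0. Differences at day 0 were small, with a median of 1.62 between a jackpot's highest and lowest value as a ratio, and a ratio over 5 for 2 of the 60. Vemurafenib libraries of day 14 shared 60 to 71 of their 100 leading guides with the day-8 vemurafenib library of the same number, 41 to 50 with the day-14 DMSO library of that number, and 2 or 3 with that of day 0. Libraries of different numbers in the same day-14 group shared 7 at most. The day-8 and DMSO libraries were therefore not independent of the choice of guides, since those of the same number rose and fell together with the ones that chose them.

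Followed in the library that each guide led, the 60 jackpots had median values of 23.7 CPM at day 0, 137 CPM at day 8 in DMSO and 472 CPM at day 14 in DMSO. The vemurafenib libraries of the same numbers had medians of 251 CPM at day 8 and 1381 CPM at day 14. The 8 recurrent guides, followed the same way, had 29.4, 121 and 397 CPM at days 0, 8 and 14 in DMSO, with 155 and 576 CPM at days 8 and 14 in vemurafenib. Jackpots and recurrent guides thus began at similar levels and had similar levels in DMSO, and the jackpots had the higher vemurafenib values, which their definition favours.

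On the log2 scale much of the gain was present without drug. In the library that each of the 100 guides led, the ratio of day 14 in vemurafenib to day 14 in DMSO had a median of 2.86 (1.02 to 8.29), and it was above 2 for 72 guides. The ratio of day 14 in DMSO to day 0 had a median of 18.1 (4.13 to 69.7). On the log2 scale a median of 73.5% of the rise to day 14 in vemurafenib was already reached in DMSO, and the share was above 50% for 98 guides. In CPM the share is smaller, since the medians in that library were 24.0 CPM at day 0, 412 CPM at day 14 in DMSO and 1153 CPM at day 14 in vemurafenib. The ratio of vemurafenib to DMSO had a median of 1.59 for the recurrent guides, 2.83 for mixed guides and 2.89 for jackpots.

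The extremes, named after their values were seen, show the range. PORCN_1, against the acyltransferase that lipidates Wnt proteins, had 4.21, 15.6 and 1861 CPM at day 14 in vemurafenib, against 10.5, 30.2 and 1772 CPM in DMSO. ANGPTL5_2, against a secreted angiopoietin-like protein, had 1.00, 3.05 and 1899 CPM in vemurafenib, against 1.02, 5.54 and 229 CPM in DMSO. In library 3 PORCN_1 was about equally high with and without drug, whereas ANGPTL5_2 had 8.29 times its DMSO level. AP5S1_4, against a subunit of the AP-5 adaptor, had 38.9, 9.84 and 1588 CPM in vemurafenib, against 33.0, 14.5 and 192 CPM in DMSO.

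Choosing guides by a vemurafenib library itself favours high vemurafenib values, so guides chosen in DMSO were set beside them. The 100 leading guides of DMSO libraries 1, 2 and 3 at day 14 had a median ratio of vemurafenib to DMSO of 1.13, 1.12 and 1.26, and 57, 58 and 68 of the 100 were above 1. Of these guides 25, 21 and 29 were also among the 100 described here. The 100 leading guides of the day-8 libraries in vemurafenib had median ratios at day 14 of 1.88, 1.98 and 2.09, and those of the day-8 libraries in DMSO had 1.07, 1.12 and 1.04. Each choice takes a different set of guides, so these ratios describe those sets and none is a test.

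Most of the 100 were not among the most abundant guides at the start, though a larger share was than of all guides, and most lay above the median guide. Their median rank by mean CPM was 13088 at day 0 and 127.5 at day 14 in DMSO. By mean CPM 7 were in the top 1% at day 0, against 95 at day 8 in vemurafenib, 56 at day 8 in DMSO and 89 at day 14 in DMSO. By definition 1% of all guides are in each top 1%. In the day-0 library with the number of the library each guide led, 11 were in the top 1%. By mean, 2 were among the 100 highest of day 0, with NO_CURRENT_762 at rank 9. Of the 100, 87 lay above the library median at day 0. The day-0 means of the 100 had a median of 20.9 CPM, against 10.6 CPM over all guides. Further members with high day-0 means were OR7C2_2, NF2_1, NO_CURRENT_449, CCDC185_1 and CDK19_2. CDK19 is a kinase of the same Mediator module as MED12, and CDK19_2 had 1932, 5.36 and 7.39 CPM at day 14 in vemurafenib, against 1247, 7.70 and 13.5 CPM in DMSO and 54.9, 39.6 and 40.2 CPM at day 0. It too was a jackpot of 1 library, present in vemurafenib and in DMSO.

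Guides without a named target and guides to olfactory receptors, which detect odours in the nose, were both found among the 100. Controls were 3 of the 100, or 3.00%, against 1.29% of the library, and olfactory receptor guides were 2 of the 100, against 1.93% of the library. NO_CURRENT_762 had 169, 1776 and 9.92 CPM at day 14 in vemurafenib, against 188, 1184 and 21.1 CPM in DMSO and 69.2, 93.6 and 65.4 CPM at day 0. OR2B6_4 had 1060, 3.17 and 0.841 CPM in vemurafenib, against 481, 10.6 and 1.35 CPM in DMSO, and OR7C2_2 was likewise a jackpot of library 1. A control guide and guides to olfactory receptors thus gave jackpots of the same form as the other guides. Among the 100 highest guides of single libraries, controls numbered 2, 3 and 3 at day 14 in vemurafenib, 6, 3 and 3 at day 14 in DMSO, and 53, 53 and 54 at day 0.

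The part of each guide's vemurafenib effect that was visible by day 8 was tested over all guides. No guide of the 100 passed the test of vemurafenib against DMSO at day 8 in edgeR's quasi-likelihood test (adjusted p under 0.05), and 0% of all 77155 guides tested did. At an unadjusted p under 0.05 the test gave 102 guides of the library and 0 of the 100. With the replicate number as a block, edgeR called 0 guides, with 209 at an unadjusted p under 0.05, of which 1 was among the 100, and DESeq2 called 0, with 177 and 1. The 100 guides had a median log2 fold change of 0.77, against 0.02 over all guides, and with the block 0.47, against 0.04. MAP3K10_2 had the lowest unadjusted p of the 100, with a log2 fold change of 1.03 ± 0.50 (SE).

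Within numbers, the ratio of vemurafenib to DMSO at day 8 was above 1 for 100 of 100 guides in the library they led, with a median of 1.84 (1.06 to 4.23). In the libraries they did not lead, 115 of 192 pairs with at least 50 DMSO reads were above 1, with a median of 1.15. Over all guides and libraries with as many reads, 44.1% of 211111 pairs were above 1, with a median of 0.941. The ratio was highest in the library that each guide led, which choosing by vemurafenib levels favours, since same-numbered libraries deviated together. The other libraries also entered the mean behind the choice, so their ratios are no unselected comparison. These counts and medians therefore describe the guides and are no test.

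Growth without drug, day 14 in DMSO against day 0, was where the fit depended on the block. Without the block edgeR called 0 of the 100 guides, as it called 0% of all guides, although 12641 guides and 70 of the 100 had an unadjusted p under 0.05. With the replicate number as a block, 22 of the 100 rose and none fell, where 3.05% of all guides rose and 2.33% fell, and 50 of the 100 had an unadjusted p under 0.05. DESeq2 without the block called 61 of the 100 higher, with 5.91% of all guides. The count with the block is itself unstable. Leaving out any 1 library number, or fitting only the 2 groups compared, called 0 of the 100 and 0 of all guides. Since the guides were chosen in libraries that carry the same numbers, these counts describe the guides and do not support their choice. The median log2 fold change of the 100 was 4.39 without the block, against 0.36 over all guides, and 2.10 with it, against -0.35.

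By class, the blocked fit called 8 of 8 recurrent guides, 11 of 32 mixed guides and 3 of 60 jackpots, the last being NF2_1, ABCD4_3 and ABCB11_2. The classes rest on how alike the 3 vemurafenib libraries were, and the DMSO libraries deviated with them at the same number. This favours calls of recurrent guides and works against calls of jackpots, so the counts and p-values here are descriptions and no test of the classes. The log2 fold change in growth with the block was 6.18 ± 0.67 (SE) for CPZ_1, 5.63 ± 0.53 for RWDD4_4, 5.61 ± 0.50 for HTRA4_2 and 5.00 ± 0.53 for PDGFRL_4, each with an edgeR adjusted p of 0.00837. The control guide NO_CURRENT_172 had 3.01 ± 0.47, with an edgeR adjusted p of 0.0173. For NF2, NF2_1 rose by 3.12 ± 0.62 and NF2_2 by 2.81 ± 0.49, and NF2_4 had 1.70 ± 0.45 (edgeR adjusted p = 0.055) and NF2_3 0.29 ± 0.52 (edgeR adjusted p = 0.735).

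By day 8 in DMSO against day 0, 0 of the 100 passed edgeR's test, where 0.00518% of all guides were called higher, and 0 passed with the block, where 0.0233% were. DESeq2 called 8 of the 100 and 0.141% of all guides, and at an unadjusted p under 0.05 edgeR gave 15 of the 100 and 1881 guides in all. The 100 had a median log2 fold change of 2.14, against 0.22 over all guides. With the block it was 0.70, against -0.22 over all guides, and 75 of the 100 were positive.

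Of the other 285 guides to the 95 genes counted here, none was called at day 8 in vemurafenib. For growth to day 14 edgeR called 0 of them without the block. The blocked fit called 9 higher and 2 lower, where 3.05% of all guides were called higher and 2.33% lower, and their median log2 fold change was -0.10, against -0.35 over all guides. Of the 285 guides 3, or 1.05%, were in the top 1% by mean at day 14 in vemurafenib, and these were NF2_2, GAB4_1 and SPRR2G_4. Their median mean level there was 5.51 CPM, against 4.20 CPM over all guides.

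The lists of pathway genes were set beside the 100 by count. In the top 1% by mean at day 14 in vemurafenib were 31 of 1000 control guides, or 3.1%, and 17 of 1492 olfactory receptor guides, or 1.14%. Of 112 guides to 28 genes linked to BRAF inhibitor resistance, 1 was among the 100, NF2_1, and 5 were in the top 1% by mean, adding NF2_2, KEAP1_3, RASA1_3 and RB1_3. A high mean could rest on 1 library. RASA1_3 had 0.775, 652 and 0.0301 CPM in the vemurafenib libraries, and KEAP1_3 had 62.1, 8.07 and 521 CPM. RB1_3 had 285, 151 and 179 CPM. Of 60 guides to 15 genes that brake the cell cycle or act after DNA damage, 0 were among the 100 and 4, or 6.67%, were in the top 1%, with 1 each to USP28, BAX, RB1 and ATM. Genes of the SETDB1 and HUSH silencing system had 0 of 28 among the 100 and 3 in the top 1%. The Hippo list had 1 of 80 among the 100 and 3 in the top 1%.

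SAGA subunits had 0 of 76 and the brakes on RAS and MAPK signalling 0 of 88, each with 1 guide in the top 1%. These were TRRAP_1, with 124, 1.96 and 754 CPM in the vemurafenib libraries, and RASA1_3, and 1 library led each. TGF-beta genes (28 guides), mTOR brakes (44), kinases of the RAS and MAPK cascade (44) and core essential genes (64) had none among the 100 and none in the top 1%. At day 8 in vemurafenib no guide of any list was called with or without the block.

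In growth to day 14 edgeR called no guide of any list without the block. With the block it called 3.05% of all guides higher and 2.33% lower. Of the 997 control guides tested it called 76 higher, a larger share than over all guides, and 2 lower. In that fit 14 of the 60 guides of the cell cycle and DNA damage list rose and 0 fell. Of the 28 silencing guides 11 rose and 1 fell, and of the 79 Hippo guides tested 11 rose and 0 fell. For BRAF inhibitor resistance 6 of 112 rose and 2 fell, for the brakes on RAS and MAPK signalling 5 of 87 rose and 1 fell, and for SAGA 3 of 76 rose and 4 fell. TGF-beta genes had 1 of 28 higher and 0 lower, mTOR brakes 2 of 44 higher and 3 lower, and RAS and MAPK kinases 0 of 44 higher and 1 lower. Of the 62 core essential guides tested, 1 rose and 7 fell. All these counts by list are unstable. The blocked fit called 0 guides of the whole library without any 1 library number, or with only the 2 groups compared.

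The genes NF2, LRWD1 and PARP10 were also targets in the epigenetic library, with 10 guides each that are numbered anew there. These are other libraries, so day 14 could be tested. In MED12 knockout cells edgeR called 0 of their 30 guides at day 14, where 0.0409% of all 12214 guides were called higher and 0.00819% lower, and 2 of the 30 had an unadjusted p under 0.05, against 845 of all guides. With the block it called 0 as well, where 0.319% were called higher and 0.115% lower, and 5 of the 30 had an unadjusted p under 0.05. DESeq2 called 1 higher, NF2_7, where 0.769% were called higher.

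NF2 guides summed to 4943, 5341 and 7448 CPM at day 14 in vemurafenib in those cells, against 2624, 2194 and 3518 CPM in DMSO. The groups did not overlap, and the median log2 fold change over the 10 guides was 0.67. LRWD1 and PARP10, each with a jackpot in the whole-genome screen, had median log2 fold changes of -0.36 and 0.25, and that of PARP10 was -0.035 with library totals. At day 8 edgeR called none of the 30 guides, where 0% of all guides were called. At an unadjusted p under 0.05 it gave 0 of the 30 and 26 of all guides, so these p-values were conservative too. DESeq2 called 0 of the 30, where 0.00835% of all guides were called higher.

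In the MED23 knockout screen the DMSO libraries numbered 1 and 2 deviated from their group mean together with the libraries numbered 2 and 1 of the vemurafenib and day-0 groups, with correlations of 0.279 to 0.339. The vemurafenib and day-0 libraries deviated together at their own number. The values given here come from fits without the number. At day 14 in those cells edgeR called 5 of the 30 guides higher and 1 lower, where 7.31% of all guides were called higher and 1.06% lower. NF2 guides summed to 39264, 77029 and 47057 CPM in vemurafenib, against 1879, 1678 and 1495 CPM in DMSO, and 5 of 10 rose, with log2 fold changes from 4.19 ± 0.62 (NF2_2) to 7.16 ± 1.04 (NF2_6). The median over the 10 NF2 guides was 2.83 with TMM scaling and 1.74 with library totals, which called the 5 and also 2 lower. Scaling by library totals moved the median of all guides in that comparison to -0.97, from 0.10 with TMM. The guide called lower was LRWD1_4 of that library, by -1.20 ± 0.24 (edgeR adjusted p = 0.0144), and edgeR with TMM called no PARP10 guide. DESeq2 called 6 of the 30 higher and 1 lower, where 13.2% of all guides were called higher and 5.54% lower, and the added guide was PARP10_5, by 0.90 ± 0.30 (DESeq2 adjusted p = 0.0177). With library totals 8 LRWD1 guides and 6 PARP10 guides were called lower, and the PARP10 median was -0.88, against 0.19 with TMM. Dose, knockout and day plan differ between these screens, and a difference in effect between them was not tested.

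Around the limit the guides looked alike. Ranks 96 to 100 were ZNF596_4, GPER1_1, CPA3_1, FOXO1_4 and NUP210L_2, with means from 354 to 349 CPM, and the next 5 were ORAI3_3, TCP10L_1, MORC2_2, ZNF527_3 and PYCR3_1, with means from 346 to 343 CPM. Both groups held guides with 1 library near 1000 CPM, such as NUP210L_2 with 948 CPM in library 3 and PYCR3_1 with 1008 CPM in library 3.

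Choosing the guides on 2 libraries and reading the third gave a view that the third library did not shape. The 100 guides chosen without library 1, 2 or 3 had medians of 9.59, 6.77 and 4.27 CPM in the library left out, against 2.30, 2.02 and 2.27 CPM over all guides. Of each such 100, 6, 6 and 5 were among the 100 highest of the library left out, and 18, 13 and 11 were in its top 1%. That top 1% holds 774 of all 77441 guides, so both counts lay above the share over all guides. These choices shared 65, 66 and 59 guides with the 100.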

How the data were processed

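Each value the authors deposited is a raw count of reads for 1 guide in 1 library, a whole number that was not normalized. The tools bcl2fastq, HISAT2 and HTSeq are named, without versions, per the submitters' processing notes. Neither the guide reference nor any read filter is given in the sources used here, so how reads with mismatches were counted is unknown. From these counts CPM were computed on column totals. The tests used edgeR 4.0.16 under R 4.3.3 (filterByExpr, minimum count 10, TMM scaling, quasi-likelihood test, 2-sided, Benjamini-Hochberg adjustment over all guides tested), with DESeq2 1.42.0 as an alternative. The whole-genome fit used 12 libraries and left out those of day 14 in vemurafenib, so that the values behind the choice did not enter it. The edgeR fits with and without the block were tried on simulated day-8 counts, in which changes were put alike into every library number. That setting is unlike the jackpots here, so the trial does not show whether the fits find changes confined to 1 number.

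Same-numbered libraries deviated together in the MED12 knockout screens: the correlation of their log2 deviations from group means was 0.494 to 0.936 in all 30 whole-genome pairs and 0.329 to 0.897 in all 30 epigenetic pairs. The numbers were therefore taken to pair the libraries, on the evidence of the data, since the labels do not say it. Fits with the number as a block stand beside results they change.

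The guides and the gene lists were chosen with earlier results of these data known. Guides were named where their gene had 2 or more of the 100, for the highest means, library shares or day-0 levels, the lowest adjusted p, list membership, rank near the limit or presence in the epigenetic library. Guides named outside this rule are marked. Of the 96 gene symbols 91 are current in the RefSeq table and 5 are older names. Results for 1 item are not reported here. It stays in the 100 guides and their class counts, and out of the counts of gene lists, of other guides to the same genes and of epigenetic guides.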

Additional observations from a re-analysis of the deposited data

How the results depend on the processing

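Of growth to day 14 in DMSO, 22 of the 100 guides were called with the replicate block, 61 by DESeq2 and 7 with library totals, against 0 in edgeR without the block. Library totals moved the median log2 fold change of all guides in that comparison by over 1 on the log2 scale. Of growth to day 8, DESeq2 called 8 and a block fit to the 2 groups alone called 2, and leaving out 1 number or library gave 0 to 1. For the 30 epigenetic guides in MED12 knockout cells at day 14, DESeq2 called 1, and the replicate block and fits without 1 library or number called 0, as did edgeR without the block. In MED23 knockout cells same-number correlations were -0.186 to 0.339. Vemurafenib and day-0 libraries correlated at their own number (0.299 to 0.320), and DMSO libraries 1 and 2 with numbers 2 and 1 of both (0.279 to 0.339). The replicate block there used the numbers as labelled and no exchanged pairing was fitted. In those cells DESeq2 called 7, and library totals called 21 in place of 6 (5 higher and 16 lower), the replicate block 6, and fits without 1 number or library 1 to 7. Ranking guides by the median of the 3 libraries kept 39 of the 100 guides and left 2 jackpots. A jackpot is defined by a median far below its highest value, so this ranking passes over jackpots by definition. Leaving out 1 vemurafenib library kept 59 to 66 guides. Of the genes described here, 0 had 2 guides among the 100 and 1, RBM15, among the 200 highest. Counted in DMSO at day 14 in place of day 0, 89 of the 100 were in the top 1%. The causes of the other changes were not tested. With 3 libraries a group, 1 number can decide a count.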
